A study of Homo sapiens with 6 samples.

Results

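The 10 genes described here encode the canonical inflammasome of human myeloid cells: the 7 sensors NLRP1, NLRP3, NLRP12, NLRC4, NAIP, AIM2 and MEFV, the adaptor ASC (gene PYCARD), the protease caspase-1 (CASP1) and the pore protein gasdermin D (GSDMD). They were taken by gene symbol out of 34893 genes, and all 10 were measured. The libraries are poly(A) RNA from THP-1, an established human acute monocytic leukaemia cell line, bought from 1 of 2 cell repositories, ATCC or DSMZ, with 3 libraries per source. Cells of both sources were untreated and growing in log phase, without the phorbol ester that turns THP-1 cells into macrophage-like cells or a lipopolysaccharide priming step. They grew in RPMI with 20% fetal bovine serum at 37 °C and 5% CO2 for 48 h, were split, and grew for 24 h more before collection. The labels state that the expansions were independent and that both stocks were grown side by side. They do not give the number of vials, so the source, the vial and its passage history cannot be told apart, and p-values measure the spread between expansions of these stocks.

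Inflammasomes are cytosolic complexes that start an inflammatory form of cell death called pyroptosis. Sensors with a pyrin domain, such as NLRP3, AIM2 and pyrin, nucleate filaments of ASC, which recruit caspase-1 through a CARD. NLRC4 and NLRP1 signal through a CARD of their own. Active caspase-1 cleaves pro-interleukin-1β, pro-interleukin-18 and gasdermin D, and the freed amino-terminal part of gasdermin D forms pores in the plasma membrane. In monocytes NLRP3 is usually kept low until NF-κB signalling primes it, whereas ASC and caspase-1 are made constitutively.

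The 6 libraries held between 23413428 and 37119721 estimated counts. Of 14569 genes that passed the filter on low counts, 7261 (49.8%) differed between the sources by edgeR's quasi-likelihood test at a Benjamini-Hochberg adjusted p threshold of 0.05. Libraries of 1 source differed from each other by more than counting noise. A trend with GC content set ATCC replicate 2 apart. The 10% of genes lowest in GC lay at a median of -0.87 there and the 10% highest at 0.34. These are log2 deviations from the mean of ATCC replicates 1 and 3. Summed levels of 12 monocyte lineage markers were 1330 to 1697 TPM (the standard transcript-level unit, corrected for transcript length and library size) in ATCC libraries and 1197 to 1426 TPM in DSMZ libraries. Of these 12 markers 5 were higher in ATCC (CD14 4.02-fold, CD33 2.49-fold, SPI1, FCGR1A and FCN1) and 2 in DSMZ (CSF1R and CD4). CD14 was low in both sources, at means of 1.41 TPM in ATCC and 0.278 TPM in DSMZ. FCN1 was lower still, at 0.175 and 0.0648 TPM. LYZ, ITGB2, CD68, ITGAM and CLEC12A did not pass. The part of these markers in the inflammasome results was not tested. Summed levels of the T cell, B cell, NK cell, erythroid, megakaryocyte, epithelial and fibroblast lists stayed at or below 7.30 TPM in every library, with CD3E, MS4A1, ALAS2, EPB42, PF4 and PPBP at 0 throughout. The B cell sum did not overlap, at 2.51 to 2.82 TPM in ATCC and 4.15 to 5.12 TPM in DSMZ, where CD79A was 4.37-fold higher. In bulk RNA, fewer cells expressing a gene and less RNA per cell cannot be told apart.

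Of the 9 inflammasome genes that could be tested, 5 were higher in ATCC cells: MEFV, NLRP1, GSDMD, PYCARD and CASP1. Among all tested genes 25.7% were higher in ATCC, so the members' count lies above the background, over only 9 genes and with no test of the share. None of the 9 was higher in DSMZ, where 24.1% of all tested genes were; this count was 0 in edgeR also at an unadjusted p under 0.05, 0 in DESeq2 and 0 in limma. The same 5 genes had TPM values that did not overlap between sources, all higher in ATCC, as for 29.8% of all tested genes; 0 members lay wholly higher in DSMZ, against 27.3% of all tested genes. MEFV, NLRP1 and GSDMD passed with at least a 2-fold difference, as 11.4% of all tested genes did in that direction, and 0 members did so in the other, against 9.90%. The median log2 fold change (DSMZ minus ATCC) of the 9 tested members was -0.50, and that of all tested genes was 0.01.

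**Figure D1:**
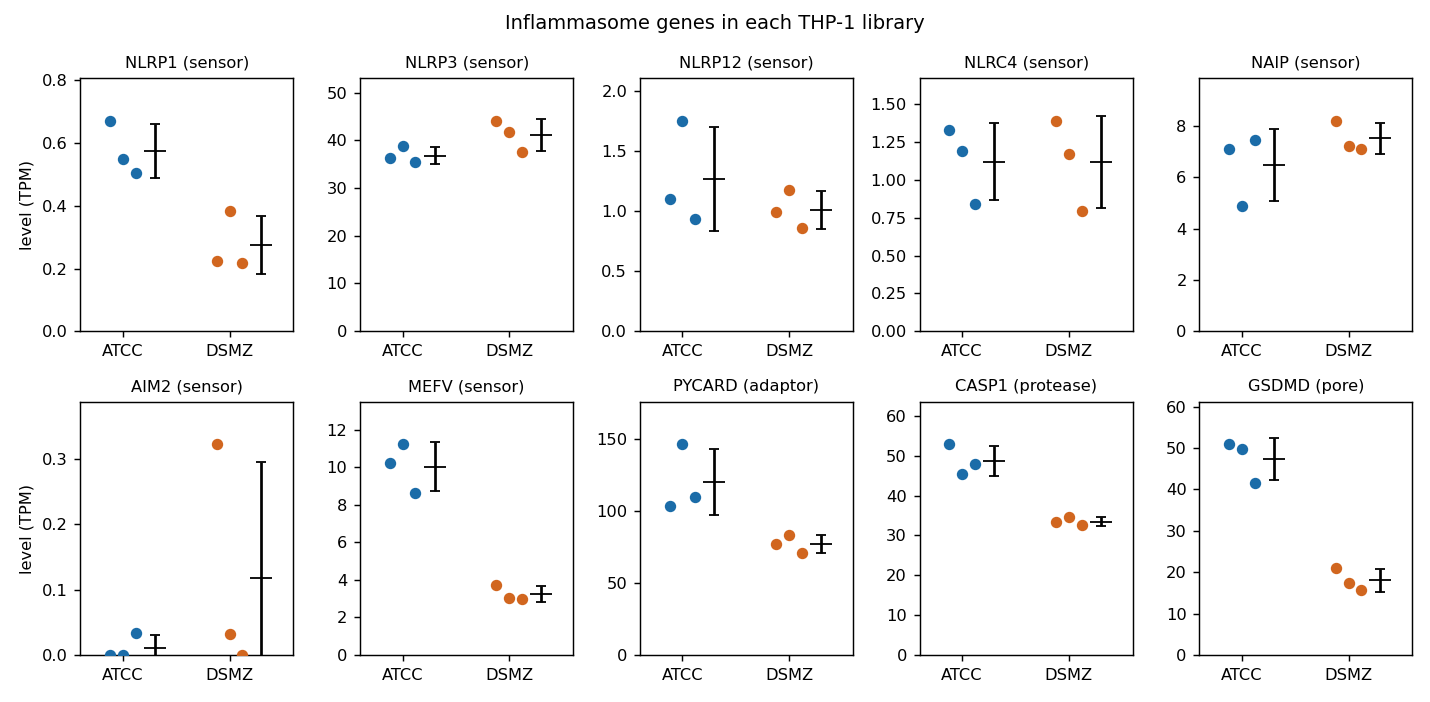
Level of each of the 10 genes in TPM (vertical axis, from 0, a different scale in each panel) in the 3 ATCC (blue) and 3 DSMZ (orange) libraries. Points are libraries and the black bars are the mean ± SD of 3 libraries; MEFV, NLRP1, PYCARD, CASP1 and GSDMD show no overlap between the sources, and AIM2 is at or near 0 in all.

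Among the sensors, NLRP3 had the highest level in both stocks. NLRP3 detects a wide range of cell disturbances, many of which act through loss of cellular potassium. The gene (ENSG00000162711.17) lies at chr1:247416156-247449108 on the plus strand of GRCh38. Its levels were 36.3, 38.7 and 35.4 TPM in ATCC replicates 1 to 3 and 44.1, 41.8 and 37.5 TPM in DSMZ replicates 1 to 3. The groups overlapped, since DSMZ replicate 3 lay below ATCC replicate 2. The log2 fold change was 0.16 ± 0.10 (SE), with an edgeR adjusted p of 0.22. This result depended on single libraries and on scaling. Without ATCC replicate 1 or 3 the NLRP3 value was 0.10 or 0.083, and under upper quartile scaling it was 0.075, none of which passed. Without ATCC replicate 2 the log2 fold change was 0.25 with an edgeR adjusted p of 0.0038, and NLRP3 would then be the only member higher in DSMZ. A correction for GC content with all libraries kept gave 0.27 and an adjusted p of 0.019, and both steps together, an alternative chosen after seeing the data, gave 0.35.

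MEFV, which encodes pyrin, a sensor of bacterial inactivation of RhoA GTPases, had the largest fold difference of the members in the fit to all 6 libraries by edgeR, although NLRP1 exceeded it without DSMZ replicate 2 (-1.47 against -1.41) and without ATCC replicate 2 (-1.35 against -1.33, or -1.38 against -1.33 with the GC correction). MEFV (ENSG00000103313.12) lies at chr16:3242028-3256627 on the minus strand. Its levels were 10.2, 11.2 and 8.63 TPM in the ATCC libraries and 3.71, 3.04 and 2.99 TPM in the DSMZ libraries. Every ATCC library lay above every DSMZ library. MEFV was 2.74-fold higher in ATCC, with a log2 fold change of -1.45 ± 0.17 (SE) and an edgeR adjusted p of 0.00035.

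NLRP1, a sensor of viral protease activity and double-stranded RNA that is prominent in skin keratinocytes, was near the bottom of the range in both stocks but also differed. The NLRP1 gene (ENSG00000091592.15) lies at chr17:5499427-5619424 on the minus strand. Its levels were 0.672, 0.549 and 0.505 TPM in ATCC and 0.224, 0.383 and 0.219 TPM in DSMZ, from 35 to 53 and from 15 to 21 estimated counts per library. The groups did not overlap. The log2 fold change of NLRP1 was -1.30 ± 0.29 (SE), with an edgeR adjusted p of 0.0081. On the log2(TPM + 0.5) scale, which compresses differences between low values, it was -0.48 by limma.

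NLRC4 and NAIP work together: NAIP binds bacterial flagellin or type III secretion proteins and NLRC4 polymerises on it. NLRC4 (ENSG00000091106.18, chr2:32224453-32265854, minus strand) was at 1.33, 1.19 and 0.840 TPM in ATCC and 1.39, 1.17 and 0.793 TPM in DSMZ. The ranges overlapped almost completely. Its log2 fold change was -0.003 ± 0.23 (SE), with an edgeR adjusted p of 0.99.

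NAIP (ENSG00000249437.7, chr5:70968483-71025114, minus strand) was at 7.10, 4.86 and 7.44 TPM in ATCC and 8.20, 7.22 and 7.10 TPM in DSMZ. ATCC replicate 2 was the lowest of the 6 libraries, and the other ATCC values lay within or next to the DSMZ range. NAIP had a log2 fold change of 0.09 ± 0.14 (SE), with an edgeR adjusted p of 0.62. NAIP lies in a duplicated region, and its level is uncertain. Of the 31-base stretches of its transcripts, 47.0% also occur in transcripts of other genes, 36.2% in AC140134.1 alone. Transcripts annotated on alternative sequences took between 48.4% and 72.3% of its TPM.

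NLRP12, an NLR protein of myeloid cells also described as a brake on NF-κB signalling, was low in both stocks. NLRP12 (ENSG00000142405.21) lies at chr19:53793603-53824394 on the minus strand. Its levels were 1.10, 1.75 and 0.935 TPM in ATCC and 0.990, 1.17 and 0.860 TPM in DSMZ. The groups overlapped, with ATCC replicate 2 the highest. For NLRP12 the log2 fold change was -0.38 ± 0.29 (SE), with an edgeR adjusted p of 0.31. It was -0.019 without ATCC replicate 2 and -0.59 without ATCC replicate 3, neither of which passed.

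AIM2, a pyrin and HIN domain protein that binds double-stranded DNA in the cytosol, was at the limit of detection. Its gene (ENSG00000163568.14) lies at chr1:159062484-159147096 on the minus strand. AIM2 had 0, 0 and 1 estimated counts in ATCC replicates 1 to 3 and 2, 1 and 0 in DSMZ replicates 1 to 3. Both totals are at or under a floor of 3 counts over each group, which corresponds to a CPM of 0.0368 in ATCC and 0.0338 in DSMZ, so no fold is given. AIM2 did not pass the filter on low counts and was not tested; the floor covers counting error only.

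PYCARD, the ASC adaptor through which pyrin domain sensors reach caspase-1, had the highest level of the 10 genes in each source. The PYCARD gene (ENSG00000103490.13) lies at chr16:31201485-31203450 on the minus strand. Its levels were 104, 146 and 110 TPM in ATCC and 76.9, 83.0 and 70.5 TPM in DSMZ. All ATCC libraries lay above all DSMZ libraries, with ATCC replicate 2 the highest. The log2 fold change was -0.53 ± 0.16 (SE), with an edgeR adjusted p of 0.029. Leaving out DSMZ replicate 1, 2 or 3 ended this call, at adjusted p of 0.089, 0.069 and 0.11, with log2 fold changes of -0.55, -0.59 and -0.47. Without ATCC replicate 2 the PYCARD value was -0.33 and still passed, at an adjusted p of 0.0079.

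CASP1, the protease of the complex, was lower in DSMZ by a similar ratio and with less spread. The CASP1 gene (ENSG00000137752.23) lies at chr11:105025443-105035250 on the minus strand. It was at 52.9, 45.5 and 47.8 TPM in ATCC and 33.3, 34.6 and 32.6 TPM in DSMZ. The groups did not overlap. The log2 fold change of CASP1 was -0.50 ± 0.10 (SE), with an edgeR adjusted p of 0.0037, and it passed without each library in turn.

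GSDMD, the pore protein cleaved by caspase-1 and by caspases 4 and 5, was 2.21-fold higher in ATCC. Its gene (ENSG00000104518.10) lies at chr8:143553207-143563062 on the plus strand. Its levels were 50.9, 49.6 and 41.5 TPM in ATCC and 21.1, 17.4 and 15.6 TPM in DSMZ. The lowest ATCC library stood well above the highest DSMZ library. The log2 fold change of GSDMD was -1.15 ± 0.14 (SE), with an edgeR adjusted p of 0.00043. The transcript set lists its 16 transcripts again on an alternative sequence, and these copies received 50% of its TPM in every library; the values here sum both.

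The order of the 10 genes by TPM changed between the stocks in the middle of the range. In ATCC cells it ran PYCARD, CASP1, GSDMD, NLRP3, MEFV, NAIP, NLRP12, NLRC4, NLRP1 and AIM2, where CASP1 and GSDMD overlapped, as did NLRP12 and NLRC4. In DSMZ cells it ran PYCARD, NLRP3, CASP1, GSDMD, NAIP, MEFV, NLRC4, NLRP12, NLRP1 and AIM2, where NLRC4 and NLRP12 overlapped, as did NLRP1 and AIM2. All other neighbours in each order were separated in every library.

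Ratios within a library show the same shift without scaling between libraries. NLRP3 stood at 0.713, 0.780 and 0.852 of the GSDMD level in the ATCC libraries and at 2.09, 2.40 and 2.40 times it in the DSMZ libraries. NLRP3 relative to CASP1 was 0.686 to 0.851 in ATCC and 1.15 to 1.33 in DSMZ. The PYCARD to CASP1 ratio overlapped, at 1.96 to 3.21 in ATCC and 2.16 to 2.40 in DSMZ. The summed level of the 7 sensors overlapped too, at 53.7 to 58.3 TPM in ATCC and 49.5 to 59.0 TPM in DSMZ. NLRP3 made up 64.0% to 66.4% of that sum in ATCC and 74.8% to 76.2% in DSMZ, and MEFV 16.1% to 19.3% and 5.55% to 6.29%. Of 9 such ratios and shares tested, 6 reached 0.1, the smallest two-sided exact permutation p that 3 against 3 libraries allow (0.15 after Benjamini-Hochberg adjustment), so the design cannot place any of them under 0.05.

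The shares of the main PYCARD transcripts did not overlap between the stocks for 2 of 3. The annotated PYCARD-204, a retained intron transcript, took 47.8%, 54.9% and 51.4% of the gene's TPM in the ATCC libraries and 46.7%, 38.5% and 45.1% in the DSMZ libraries. PYCARD-201, the full-length coding form, took 27.9%, 24.8% and 25.6% in ATCC and 36.9%, 36.1% and 31.4% in DSMZ. The ranges of each do not overlap, although for PYCARD-204 the closest libraries are only about 1 percentage point apart. PYCARD-202, which lacks a 57-base exon of the linker between the pyrin and CARD domains, took 19.7% to 24.0% in ATCC and 15.7% to 25.3% in DSMZ. In level, PYCARD-201 overlapped, at 28.2 to 36.3 TPM in ATCC and 22.1 to 29.9 TPM in DSMZ, while PYCARD-204 did not, at 49.5 to 80.3 TPM and 31.7 to 36.0 TPM. The level of PYCARD-202, annotated as protein-coding, did not overlap either, at 24.8 to 28.8 TPM in ATCC and 12.1 to 21.0 TPM in DSMZ. With protein-coding transcripts only, the PYCARD log2 fold change was -0.33 and its edgeR adjusted p 0.14, so the call on the whole gene was lost when its noncoding transcripts were left out. These shares are kallisto's division of reads between overlapping transcripts and were not tested.

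The sequences that tell these PYCARD transcripts apart are shown from GRCh38, 5′ to 3′ on the minus strand, with the exon or intron in capitals and 10 flanking transcript or genome bases in lower case. The linker exon is at chr16:31202147-31202203 and the retained intron, 213 bases that begin with GT and end with AG, directly precedes it at chr16:31202204-31202416.
PYCARD linker exon: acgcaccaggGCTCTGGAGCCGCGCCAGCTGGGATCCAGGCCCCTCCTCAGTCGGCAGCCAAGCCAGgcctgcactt
PYCARD retained intron: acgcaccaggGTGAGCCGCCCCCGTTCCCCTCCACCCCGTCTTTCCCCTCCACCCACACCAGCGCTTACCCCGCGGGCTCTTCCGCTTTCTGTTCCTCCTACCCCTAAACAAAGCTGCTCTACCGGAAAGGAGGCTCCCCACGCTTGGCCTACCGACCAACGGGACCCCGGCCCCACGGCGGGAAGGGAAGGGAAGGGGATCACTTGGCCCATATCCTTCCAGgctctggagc

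The shares of the main CASP1 transcripts overlapped between the stocks, except that of CASP1-215. CASP1-208, which lacks a 63-base exon, took 38.4% to 43.1% of the gene's TPM in ATCC and 35.5% to 39.5% in DSMZ. The transcripts that keep the exon, CASP1-202 and CASP1-215, together took 49.8% to 53.0% and 50.5% to 56.0%. Both ranges overlap. The exon lies at chr11:105033064-105033126 and adds 21 codons to the part between the CARD and the catalytic domain. It is shown, in capitals, because these forms differ in it; they also differ in length elsewhere.
CASP1 cassette exon: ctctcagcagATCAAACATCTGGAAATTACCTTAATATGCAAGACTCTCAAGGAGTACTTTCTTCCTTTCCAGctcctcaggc

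NLRP3 transcripts differ in exons of 171 bases, each 57 codons, that encode leucine-rich repeats. Transcripts with all of them, NLRP3-201 and NLRP3-206, took 60.3% to 72.4% of the TPM in ATCC and 55.6% to 64.2% in DSMZ. NLRP3-204 and NLRP3-205, which each lack 1 such exon, together took 25.3% to 33.3% and 32.1% to 39.7%. Both ranges overlap. Taken singly, NLRP3-204 overlapped, at 20.2% to 24.4% in ATCC and 21.4% to 26.1% in DSMZ. NLRP3-205 did not, at 5.15% to 9.10% in ATCC and 9.79% to 13.6% in DSMZ. These shares were not tested. The exon skipped in NLRP3-204, at chr1:247435970-247436140, and the one skipped in NLRP3-205, at chr1:247429585-247429755, are shown on the plus strand in capitals; as whole numbers of codons, either can be left out without a change of reading frame.
NLRP3 exon skipped in NLRP3-204: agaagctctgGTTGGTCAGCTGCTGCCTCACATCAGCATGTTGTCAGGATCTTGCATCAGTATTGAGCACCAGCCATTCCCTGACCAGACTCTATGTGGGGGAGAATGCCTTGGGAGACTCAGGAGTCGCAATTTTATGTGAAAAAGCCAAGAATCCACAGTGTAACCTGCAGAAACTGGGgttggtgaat
NLRP3 exon skipped in NLRP3-205: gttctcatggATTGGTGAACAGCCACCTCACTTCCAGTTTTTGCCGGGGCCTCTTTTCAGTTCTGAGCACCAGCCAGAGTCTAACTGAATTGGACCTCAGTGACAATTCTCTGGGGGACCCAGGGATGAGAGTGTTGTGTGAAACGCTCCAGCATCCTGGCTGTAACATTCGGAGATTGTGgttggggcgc

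MEFV was spread over coding and nonsense-mediated decay transcripts. MEFV-201, the full-length form, took 44.4% to 61.1% of the TPM in ATCC and 26.2% to 61.5% in DSMZ. Nonsense-mediated decay transcripts took 34.0% to 44.9% and 28.4% to 46.0%. Both ranges overlap, while the MEFV-201 level itself was 4.54 to 6.62 TPM in ATCC and 0.796 to 2.28 TPM in DSMZ, without overlap. Taken singly, MEFV-207, a nonsense-mediated decay transcript, took 10.43% to 25.05% in ATCC and 0 in every DSMZ library. The share of the coding MEFV-202 did not overlap either, at 0 to 5.23% in ATCC and 8.97% to 16.97% in DSMZ. The MEFV-202 level overlapped, at 0 to 0.536 TPM in ATCC and 0.268 to 0.516 TPM in DSMZ. These MEFV shares were not tested.

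**Figure D2:**
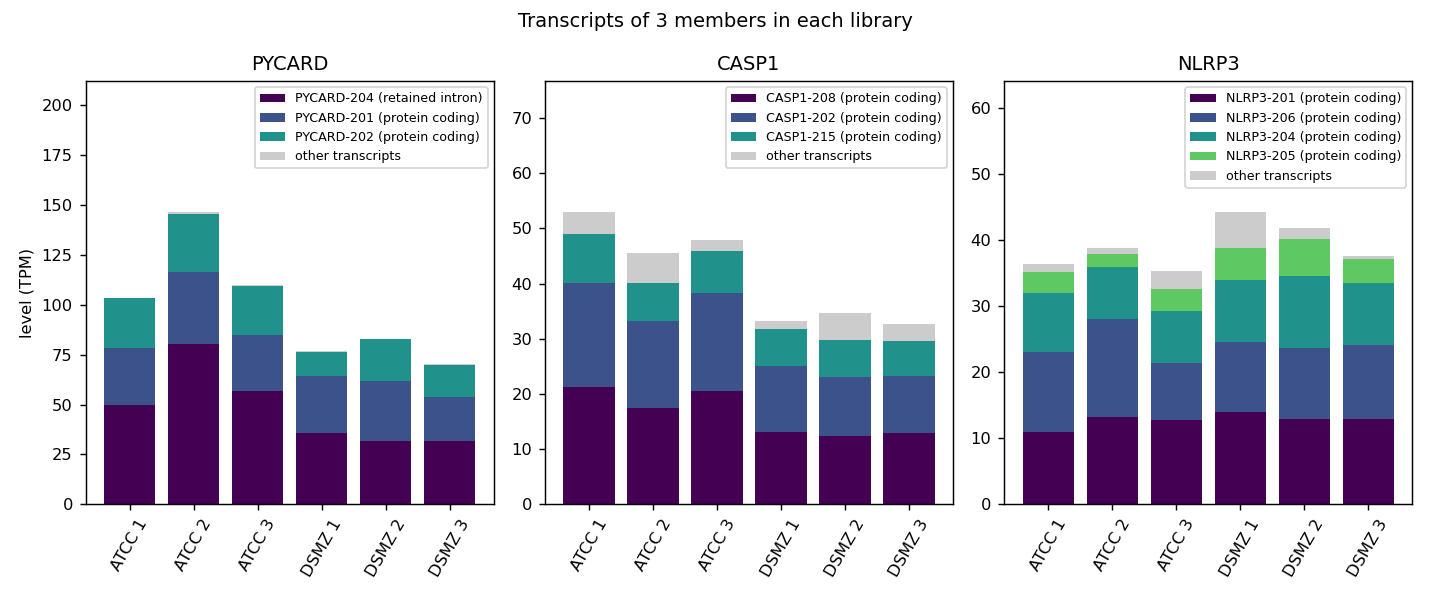
Level in TPM (vertical axis, from 0) of the main transcripts of PYCARD, CASP1 and NLRP3, stacked, in each of the 6 libraries. The PYCARD-204 block is taller in each ATCC library (49.5 to 80.3 TPM) than in any DSMZ library (31.7 to 36.0 TPM), and the CASP1 columns are shorter in DSMZ in all blocks together (32.6 to 34.6 TPM) than in ATCC (45.5 to 52.9 TPM).

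Sharing of sequence with other genes bears on some of these levels. PYCARD and NLRC4 transcripts hold no 31-base stretch found in another gene's listed transcripts, on either strand. CASP1 shares 8.93% of its stretches, 7.66% with CARD16, its neighbour and decoy. MEFV shares 7.96% and NLRP12 7.72%, in each case with no single gene holding more than about 1.08%. The library kit keeps strand, but no source used here gives the strand setting of the read assignment.

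The members lie in regions that differ in different ways between the stocks. Of the 55 tested genes within 1 Mb of GSDMD, 51 were higher in ATCC and 0 in DSMZ, with a median log2 fold change of -1.03 and quartiles of -1.47 and -0.77. The GSDMD value of -1.15 lies within those quartiles. The nearest tested protein-coding genes on each side were ZC3H3 at -0.91 ± 0.12 (SE) and MROH6 at -0.61 ± 0.19 (SE). Both also passed the edgeR test, and NAPRT, an enzyme of NAD synthesis, was at -1.88 ± 0.17 (SE). On chromosome 8 as a whole 327 of 469 tested genes were higher in ATCC, with a median of -0.86. DNA copy number was not measured in these libraries, and its part in the GSDMD result was not tested.

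NLRP1 lay below the lower quartile of its surroundings. Of the 37 tested genes within 1 Mb of NLRP1, 19 were higher in DSMZ and 2 in ATCC, with a median log2 fold change of 0.52 and quartiles of 0.09 and 0.79, whereas NLRP1 was at -1.30. On the low-coordinate side its nearest tested protein-coding neighbours were MIS12 at 0.78 ± 0.16 (SE) and DERL2 at 0.70 ± 0.11 (SE). Both were higher in DSMZ. On the other side WSCD1 at -0.62 ± 0.21 (SE) and PIMREG at -1.09 ± 0.19 (SE) were higher in ATCC like NLRP1. All 4 passed the edgeR test.

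NLRP3 lay above the upper quartile of its surroundings. Among 16 tested genes within 1 Mb of NLRP3, 8 were higher in ATCC and 0 in DSMZ, with a median of -0.71 and quartiles of -0.85 and -0.14, whereas NLRP3 was at 0.16. Its nearest tested neighbours annotated as protein-coding, ZNF496 (-0.07 ± 0.10, SE) and GCSAML-AS1 (0.34 ± 0.22, SE), did not pass. ZNF124 (-1.12 ± 0.17, SE), farther away, was higher in ATCC.

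MEFV lay below the lower quartile of its region. The 45 tested genes within 1 Mb had a median of -0.22 and quartiles of -0.49 and 0.23, with 15 higher in ATCC and 8 in DSMZ. The nearest tested protein-coding genes on each side were also higher in ATCC by edgeR, with adjusted p from 0.0023 to 0.0051. They were ZNF200 at -0.74, ZNF213 at -0.70, ZNF263 at -0.62 and TIGD7 at -1.73.

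PYCARD, on the same chromosome, lay below the lower quartile of its 51 tested neighbours (median -0.16, lower quartile -0.32), of which 11 were higher in ATCC and 1 in DSMZ. CASP1 has only 4 tested neighbours within 1 Mb, 2 of them higher in ATCC and 0 in DSMZ, with a median of -0.42. The closest are CARD16 at -0.45 ± 0.12 (SE), which passed, and CASP4 at -0.12 ± 0.09 (SE), which did not. On chromosome 11, 362 of 786 tested genes were higher in ATCC, with a median of -0.36. NLRP12 (median of 49 neighbours 0.04), NAIP (13 neighbours, 0.10), NLRC4 (9 neighbours, -0.44) and AIM2 (16 neighbours, -0.21) complete the set. NLRP12, at -0.38, lay below the lower quartile of its neighbours (-0.27). These counts and medians are descriptions, since neighbouring genes are not replicates. Among all tested genes 25.7% were higher in ATCC and 24.1% in DSMZ.

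**Figure D3:**
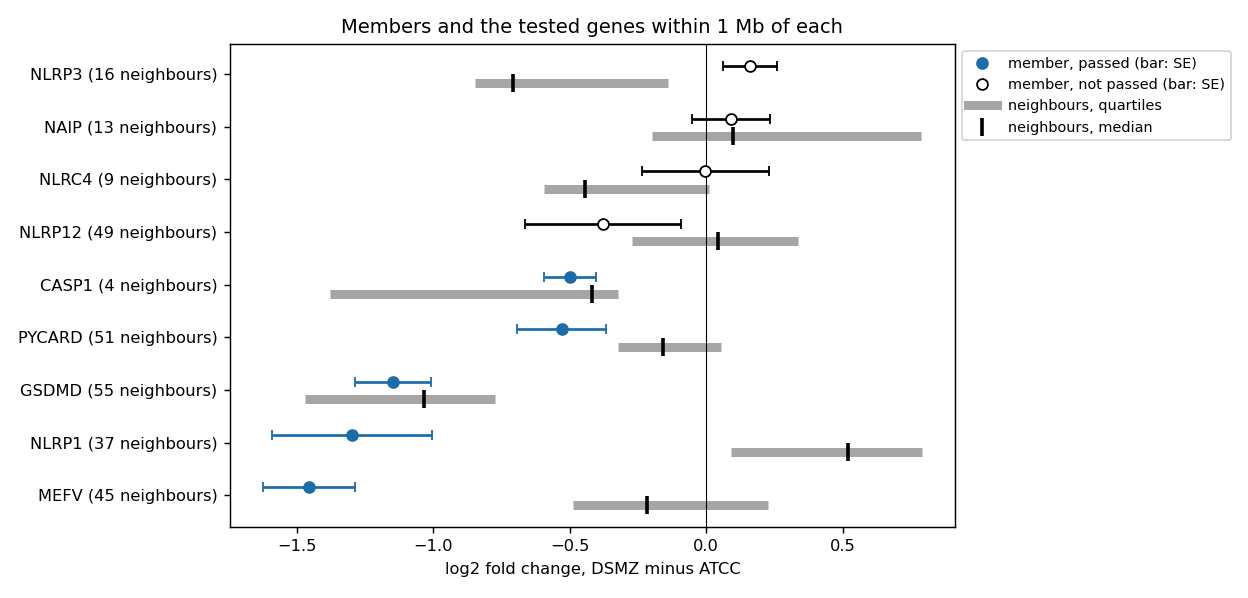
Log2 fold change (DSMZ minus ATCC, horizontal axis) of each tested member (circle with SE, filled where it passed edgeR's test) and the median and quartiles of the tested genes within 1 Mb (tick and grey bar). GSDMD, CASP1, NLRC4 and NAIP lie inside their neighbours' quartiles. NLRP1, MEFV, PYCARD and NLRP12 lie below theirs, and NLRP3 lies above.

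**Figure D4:**
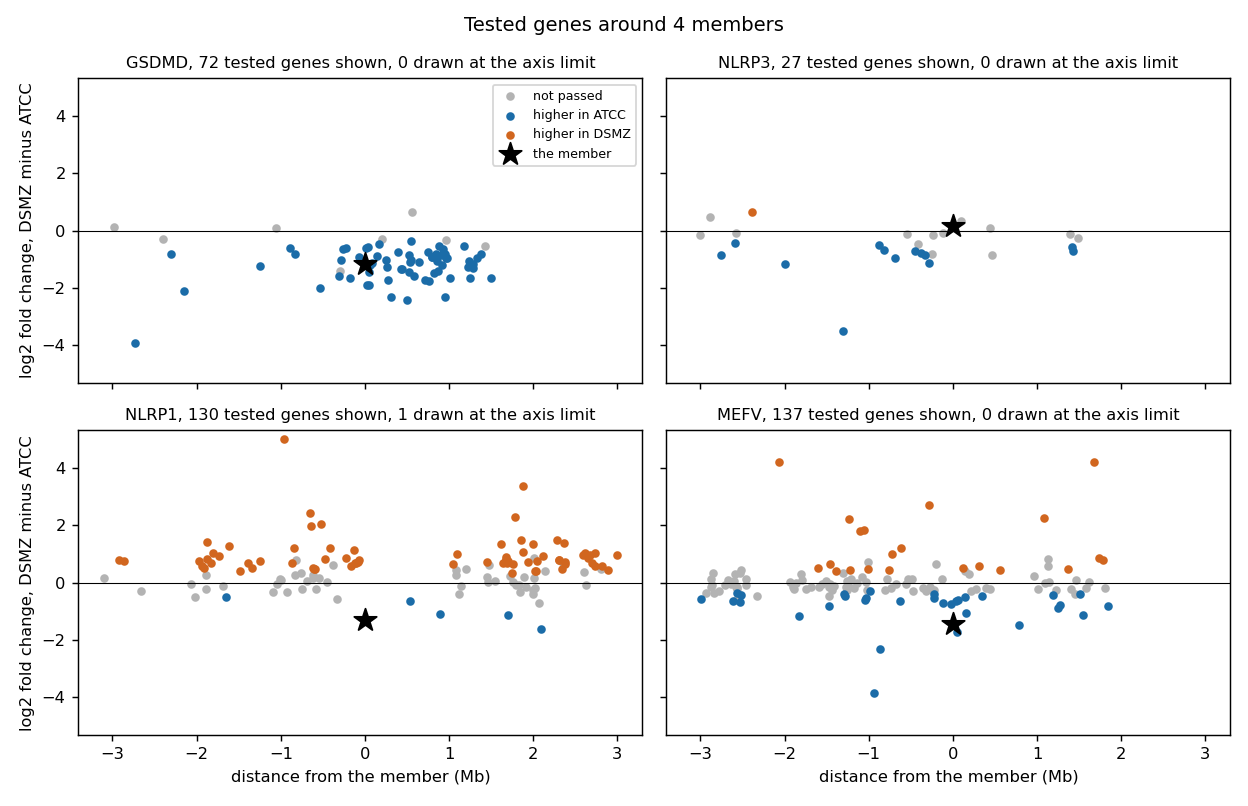
Log2 fold change (DSMZ minus ATCC, vertical axis) of tested genes against their distance in Mb from GSDMD, NLRP3, NLRP1 and MEFV (star at 0), coloured by edgeR call. Around GSDMD 51 of 55 genes within 1 Mb are higher in ATCC, and around NLRP1 19 of 37 are higher in DSMZ.

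Promoter sequences of 6 of the 10 members were matched in RefSeq (GRCh38.p14); NLRP1, NAIP, CASP1 and GSDMD had no entry. In the 250 bases before the start, both strands were searched for the interferon-stimulated response element (ISRE, a pair of GAAA runs 2 bases apart), the GAS element (TTCNNNGAA), PU.1 (AGGAAGT), AP-1 (TGANTCA), C/EBP (TTGCNNAA) and SP1 (GGGCGG). Among 35116 promoters of that length, 3.02% hold the ISRE letters, 6.57% the GAS letters, 7.01% those of PU.1, 6.57% those of AP-1, 9.05% those of C/EBP and 42.6% those of SP1. AIM2, itself known as interferon-inducible, held 1 ISRE match and 1 AP-1 match, which do not overlap each other. NLRP12 held 1 PU.1 and 1 C/EBP match, 1 of 3 NLRC4 starts held a C/EBP match, PYCARD held 2 SP1 matches, and MEFV and NLRP3 held none of the 6. A match is a run of letters, not an occupied site. The AIM2 stretch, the only one with an ISRE match and the member at the limit of detection, is shown for chr1:159076902-159077016, directly before the first exon of AIM2-202 and within introns of longer annotated transcripts, on the minus strand with both matches in capitals, and the MEFV stretch, of the member with the largest fold difference over all 6 libraries, for chr16:3256634-3256883 on the minus strand.
AIM2 promoter: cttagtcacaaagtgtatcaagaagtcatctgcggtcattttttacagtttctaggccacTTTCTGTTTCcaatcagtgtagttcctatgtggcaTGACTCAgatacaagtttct
MEFV promoter: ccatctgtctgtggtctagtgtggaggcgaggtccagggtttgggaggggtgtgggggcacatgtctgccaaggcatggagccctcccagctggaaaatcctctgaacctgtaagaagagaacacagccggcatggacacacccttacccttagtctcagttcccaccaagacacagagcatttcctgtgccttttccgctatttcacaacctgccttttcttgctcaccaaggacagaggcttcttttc

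Genes that act beside the members were read from 7 lists. For comparison, 24.1% of all tested genes were higher in DSMZ and 25.7% in ATCC. No list was tested against these shares. In the arm around caspases 4 and 5 and other pore proteins, 6 of 9 genes were tested, 3 were higher in DSMZ and 2 in ATCC, with a median log2 fold change of 0.56. CASP4, which senses lipopolysaccharide inside the cell and also cleaves gasdermin D, was at 89.4 ± 7.52 TPM (SD, n = 3) in ATCC and 82.9 ± 2.14 TPM in DSMZ and did not pass. CASP4 stood at 1.53 to 2.10 times the CASP1 level in ATCC and 2.35 to 2.57 times in DSMZ. NINJ2 was at 15.4 ± 1.01 and 36.0 ± 3.88 TPM, with a log2 fold change of 1.23 ± 0.15 (SE). The gasdermin GSDMB (1.23 ± 0.15, SE) and its relative PJVK (1.44 ± 0.26, SE) were higher in DSMZ, and GSDME, a gasdermin cleaved by caspase-3, was higher in ATCC (-0.67 ± 0.17, SE). GSDMB, PJVK and GSDME did not pass by limma on log2(TPM + 0.5), at adjusted p of 0.0503, 0.079 and 0.069.

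Of the cytokine substrates, their receptors and antagonists, 7 of 12 were tested, 2 were higher in DSMZ and 3 in ATCC, with a median of -0.25. IL18, the substrate with the higher level, was at 18.1 ± 1.80 TPM (SD, n = 3) in ATCC and 15.5 ± 1.11 TPM in DSMZ and did not pass. IL1B was at 0.876 ± 0.276 and 1.29 ± 0.311 TPM. Its count-based log2 fold change was 1.16 ± 0.25 (SE) with an edgeR adjusted p of 0.0061, but its TPM values overlapped and limma gave an adjusted p of 0.16. IL1R1, the interleukin-1 receptor, was higher in ATCC (-2.36 ± 0.22, SE), as was IL18BP, the interleukin-18 decoy (-0.90 ± 0.17, SE). IL18R1 (1.24 ± 0.40, SE) was at 0.152 ± 0.172 and 0.275 ± 0.161 TPM, and its call was lost without ATCC replicate 2 or 3 or any DSMZ replicate, at adjusted p from 0.0566 to 0.0958. With all libraries kept, IL18R1 also did not pass by DESeq2 (adjusted p 0.070) or by limma on log2(TPM + 0.5) (0.36). The same held for edgeR with the transcript length offset (0.24). IL1RN, the interleukin-1 receptor antagonist, was at 12.1 ± 1.66 and 16.6 ± 3.40 TPM and did not pass; without ATCC replicate 2 or DSMZ replicate 3 its adjusted p was 0.013 or 0.033.

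Of the partners and activators of assembly, 15 of 16 were tested, 5 were higher in DSMZ and 4 in ATCC, with a median of -0.31. TXNIP, a thioredoxin-binding protein described as an NLRP3 partner, was at 230 ± 29.7 TPM (SD, n = 3) in ATCC and 106 ± 4.38 TPM in DSMZ, with a log2 fold change of -1.09 ± 0.10 (SE). BTK, a kinase that phosphorylates NLRP3, was at 59.6 ± 2.69 and 28.96 ± 0.755 TPM. PSTPIP1, which binds pyrin, was at 24.8 to 40.2 TPM in ATCC and at most 16.6 TPM in DSMZ. Its log2 fold change was -1.26 ± 0.15 (SE). GBP2, an interferon-induced GTPase, was higher in DSMZ (2.21 ± 0.16, SE), and so was SUGT1, a chaperone partner of NLRs (0.71 ± 0.18, SE), whose limma adjusted p was 0.15.

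Of the inhibitors and decoys, 8 of 14 were tested, 3 were higher in DSMZ and 1 in ATCC, with a median of 0.50. SERPINB1, a serpin described as restraining caspase-1, was at 34.8 ± 1.59 TPM (SD, n = 3) in ATCC and 90.8 ± 7.24 TPM in DSMZ, with a log2 fold change of 1.37 ± 0.13 (SE). DPP8, a peptidase that holds NLRP1 and CARD8 inactive, was at 13.7 ± 3.74 and 24.05 ± 0.896 TPM (0.96 ± 0.20, SE). CARD16, a CARD-only protein that binds caspase-1, was higher in ATCC (-0.45 ± 0.12, SE), and its ratio to CASP1 overlapped, at 0.991 to 1.03 in ATCC and 0.978 to 1.12 in DSMZ. Without DSMZ replicate 2 or 3 the CARD16 call was lost, at adjusted p of 0.054 and 0.073. IFI16, a relative of AIM2 and its nearest tested protein-coding neighbour, was higher in DSMZ (0.86 ± 0.29, SE). This IFI16 call was lost without ATCC replicate 3 or DSMZ replicate 1 or 2, at edgeR adjusted p of 0.073, 0.11 and 0.074. CARD8, itself an inflammasome sensor, was at 71.9 ± 19.5 and 78.0 ± 6.23 TPM and did not pass (edgeR adjusted p 0.057), close to the threshold. CARD8 passed as higher in DSMZ with all libraries by DESeq2 (0.029), with RLE size factors (0.046), without a low-count filter (0.036), with primary assembly transcripts only (0.046) and under the GC correction (0.0022), and also without ATCC replicate 1 (0.028) or 2 (0.0024). MARCH7, a ubiquitin ligase acting on NLRP3, was at 99.95 ± 44.5 and 122 ± 6.12 TPM and did not pass.

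Of the other NLR and PYHIN genes, 10 of 15 were tested, 3 were higher in DSMZ and 1 in ATCC, with a median of 0.23. NLRP2, a pyrin domain relative of NLRP3, was at 8.78 ± 2.80 TPM (SD, n = 3) in ATCC and 30.9 ± 0.677 TPM in DSMZ, with a log2 fold change of 2.03 ± 0.12 (SE). NLRX1, a mitochondrial NLR, was at 28.1 ± 0.697 and 7.73 ± 1.35 TPM. CIITA, the master regulator of MHC class II genes, was higher in DSMZ (1.73 ± 0.22, SE), as was NLRC3 (0.57 ± 0.14, SE), with a limma adjusted p of 0.055. NLRC5, which drives MHC class I genes, was at 24.99 ± 1.26 and 19.9 ± 3.05 TPM and did not pass, but under the GC correction it was higher in ATCC (-0.27, edgeR adjusted p 0.030). MNDA, a myeloid PYHIN protein, was at 95.9 ± 34.6 and 80.7 ± 4.01 TPM and did not pass, but without ATCC replicate 2 it was higher in ATCC, at an adjusted p of 0.0051.

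Of the NF-κB targets that mark priming, 10 of 12 were tested, 1 was higher in DSMZ and 1 in ATCC, with a median of 0.10. ICAM1, an adhesion molecule, was at 0.375 ± 0.0943 TPM (SD, n = 3) in ATCC and 1.53 ± 0.659 TPM in DSMZ. RELA, an NF-κB subunit, was higher in ATCC (-0.64 ± 0.14, SE). NFKBIA, the NF-κB inhibitor, was at 38.9 ± 1.96 and 39.6 ± 4.52 TPM and did not pass. NFKB1 was at 23.4 ± 3.44 and 30.0 ± 1.01 TPM and did not pass, but without ATCC replicate 2 it was higher in DSMZ, at an adjusted p of 0.019.

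Of the interferon-induced genes, 10 of 11 were tested, 5 were higher in DSMZ and 2 in ATCC, with a median of 0.69. IFIT3 was at 0.678 ± 0.343 TPM (SD, n = 3) in ATCC and 2.84 ± 0.248 TPM in DSMZ. IRF1, an interferon-induced transcription factor, was at 11.95 ± 1.10 and 22.7 ± 2.64 TPM. RSAD2 (-2.25 ± 0.23, SE) and OAS3 (-2.17 ± 0.15, SE), both antiviral effectors, were higher in ATCC. IFIT2 was higher in DSMZ (1.09 ± 0.31, SE), a call lost without DSMZ replicate 1 or 3, at adjusted p of 0.061 and 0.065. MX1, an antiviral GTPase, was at 4.79 ± 1.02 and 4.49 ± 0.499 TPM and did not pass.

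**Figure D5:**
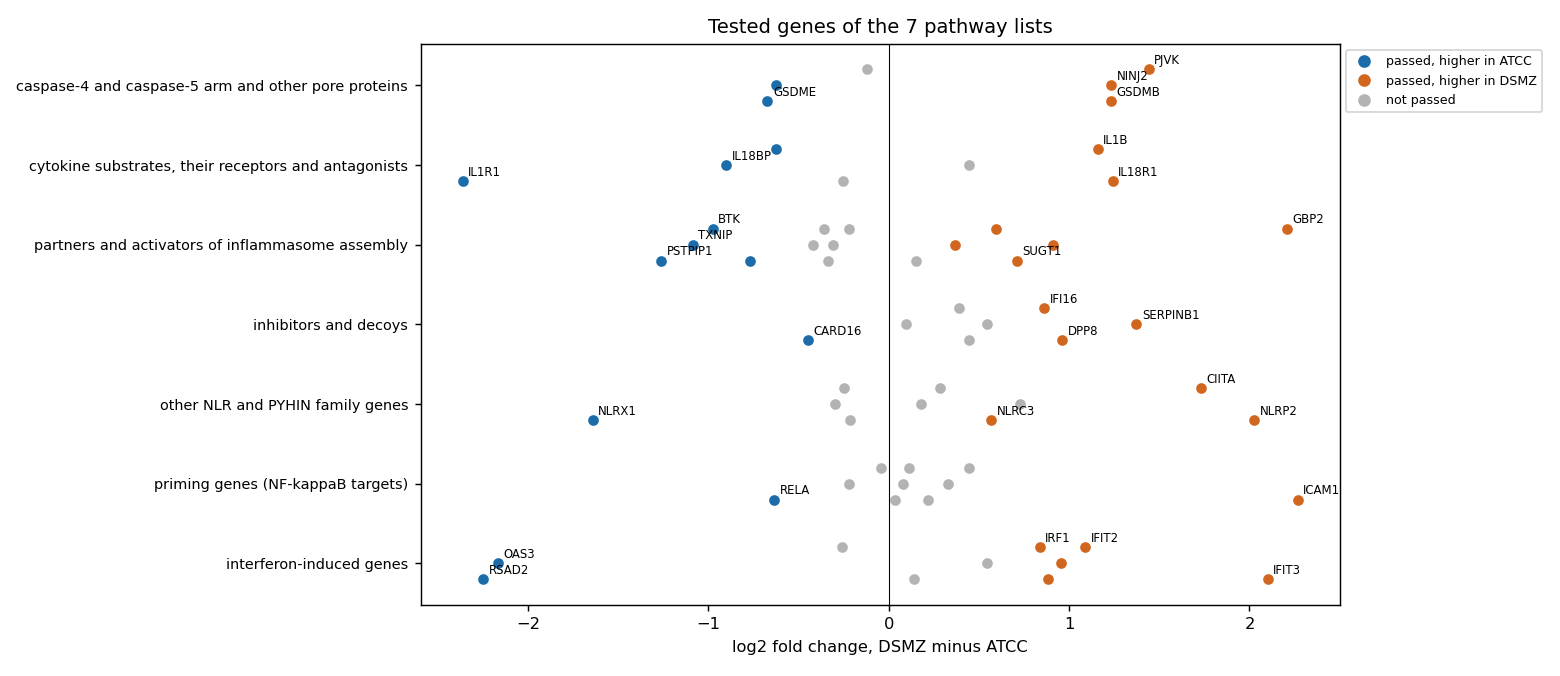
Log2 fold change (DSMZ minus ATCC, horizontal axis) of the tested genes of 7 lists (rows), 1 dot per gene, spread vertically only to separate them; orange and blue dots passed edgeR's test, higher in DSMZ and in ATCC. Every list holds genes that passed in each direction.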

How the data were processed

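Poly(A) RNA libraries of THP-1 cells, 3 per source, were compared by source, taken from the labels. The deposited values are estimated counts and TPM per transcript with transcript lengths, made by the authors with kallisto 0.43.0 on GRCh38 after bcl2fastq 2.20 and Trimmomatic 0.35, per the submitters' processing notes; the transcript release and strand setting are not given in the sources used here. Of 179973 transcripts, 91.0% matched GENCODE 29 by identifier and 7.90% by symbol; the 2037 unmatched held at most 0.199% of counts. Both deposited units were summed per gene (34893 genes), and counts were rounded. edgeR 4.0.16 (filterByExpr, TMM, quasi-likelihood test, source as the only term, R 4.3.3) was fitted on 14569 genes with Benjamini-Hochberg adjustment over all. The common biological coefficient of variation was 15.9%. On simulated counts for these libraries (14385 genes) recovery was 15 of 67 genes at a set 1.5-fold change. It was 51 of 67 at 2-fold and 65 of 66 at 4-fold, and 6 unchanged genes were called. The simulation changed only these few genes and gave every gene the common coefficient of variation, without the GC trend. In the data 49.8% of tested genes passed, so these rates do not give the power of the comparison itself.

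Alternatives were other normalizations, DESeq2 1.42.0, limma 3.58.1 on log2(TPM + 0.5) or log2(TPM + 0.1), other filters and transcript sets, a length offset, a GC correction, a replicate block and leaving out each library. Genes named outside the 10 members were, of each list, up to 4 passing genes with the largest fold change and the 2 with the highest mean TPM. 1 gene of the interferon list is not reported here. The members and lists were chosen with earlier results of these data known. No protein sequence is given, and no gene was named for a similar pattern, since the 6 libraries come from only 2 sources.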

Additional observations from a re-analysis of the deposited data

How the results depend on the processing

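All 5 members higher in ATCC kept their direction in 100 values over 20 alternatives, and 96 of these passed; the 4 that did not were all PYCARD. The count of members higher in ATCC was 4 with protein-coding transcripts only and 4 to 5 when 1 library was left out, and 5 under the other alternatives. The count higher in DSMZ was 1 (NLRP3) under the GC correction, 1 under the replicate block with GC correction, 1 without ATCC replicate 2 with GC correction (added after seeing the data), and 0 to 1 when 1 library was left out. Genes differing in all numbered 7261, 5506 to 9511 with 1 library left out, 8986 under the GC correction and 6253 with protein-coding transcripts only. Upper quartile scaling moved the median of all genes to -0.07; no member that passed changed direction with it. With all libraries kept, the GC correction also brought CARD8, IL1RN, MNDA, NFKB1 and NLRC5 past the threshold.

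Directions turned only for genes that did not pass either way in those settings. NLRC4 was at 0.0012 with a filter at a mean of 1 CPM, 0.0021 with protein-coding transcripts only, 0.00087 under the replicate block with GC correction, 0.020 under the replicate block, 0.29 without ATCC replicate 2 with GC correction, and between -0.21 and 0.17 when 1 library was left out. With 1 library left out, NAIP ranged from -0.035 to 0.16, MNDA from -0.43 to 0.015 and NFKBIA from -0.098 to 0.10. Under upper quartile scaling NFKBIA was at -0.050, and CASP4 was at 0.018 without ATCC replicate 2 with GC correction. The cause was not tested.

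Whether replicate numbers pair the libraries was unclear, and so few libraries cannot exclude it. Same-numbered libraries correlated at 0.012, 0.080 and 0.16 in their deviations from the source means, not all over 0.1. Each library correlated best with its own number except DSMZ replicate 1, which did so with ATCC replicate 2 (0.026). A replicate block gave 7012 genes, with 5 members higher in ATCC and 0 in DSMZ; with the GC correction it gave 8884. Depth limits AIM2, with at most 2 counts in a library, and NLRP1, with at most 53.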
